A study of Homo sapiens with 18 samples.

Results

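The adenylyl cyclase genes were taken by name, ADCY1, ADCY2, ADCY3, ADCY5, ADCY6, ADCY7, ADCY8, ADCY9 and ADCY10, from the transcript counts of the series summed to genes. These are 9 of the 34255 genes matched. Of the 9, 8 reached at least 10 counts in 1 or more of the 18 libraries and passed the filter on low counts, 6 held 10 counts or more in each library, and ADCY8 stayed under 10 counts in all libraries and is reported as not expressed. The libraries were poly(A) RNA-seq from HEK293 cells, a human embryonic kidney line, in 3 forms, the wildtype line and lines edited by CRISPR-Cas9 that lack β-arrestin1/2 (β-arrestin1/2 KO) or Gαs (Gαs KO). All cells, wildtype included, carried a transfected plasmid for a β-adrenergic receptor and were serum starved. At 48 h after transfection they received vehicle (basal) or 1 μM isoproterenol, an agonist of β-adrenergic receptors, for 1 h, with 3 biological replicates in each of the 6 groups. Each genotype was 1 edited line as labelled, so a difference between lines cannot be told apart from differences that arose between lines for other reasons.

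Adenylyl cyclases make cyclic AMP from ATP. The membrane-bound forms are switched on by Gαs released from activated receptors and differ in their other inputs: ADCY1, ADCY3 and ADCY8 respond to calcium and calmodulin, ADCY5 and ADCY6 are inhibited by calcium and by Gαi, ADCY2 and ADCY7 are enhanced by Gβγ, and ADCY9 is poorly sensitive to forskolin. ADCY10 is the soluble form, which responds to bicarbonate and not to G proteins. RNA levels say nothing of enzyme activity or protein.

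Library totals ran from 17908597 to 25019834 expected counts, of which 92.9 to 93.8% lay on transcripts matched to genes. Replicate 1 of the wildtype basal group stood apart: the mean GC content of its counted transcripts was 52.49%, against 49.15 to 50.1% in the other libraries, so the basal differences from wildtype and the wildtype responses of the members named below, and the gene list counts, are also given without it. GNAS, the gene of Gαs, averaged 1317 ± 379 CPM (counts scaled to library size) in wildtype basal cells and 66.03 ± 5.04 in Gαs KO basal cells (SD, n = 3). ARRB2 fell from 98.85 ± 28.6 to 20.76 ± 2.54 in β-arrestin1/2 KO cells, whereas ARRB1 RNA was 49.55 ± 14 and 41.04 ± 2.87 (adjusted p = 0.141 by edgeR's quasi-likelihood test). Of the HEK293 markers listed, VIM (618 to 1510 CPM), NEFL (86.9 to 344) and CDH2 (47.2 to 156) were high. PAX2 (0.9 to 3.56), NEFM (0.757 to 2.47), PAX8 (0 to 1.54, median 0.314) and LHX1 (0 to 7.07, median 0.204) were low. Of the markers of other cell types, COL1A1 reached 18.4 to 47.7 CPM, PECAM1, CDH5, ALB and MYH7 stayed at 1.41 CPM or below, and the leukocyte markers PTPRC and CD3E reached at most 4 and 0 counts.

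The order of the cyclases was first set out per length, as counts per kilobase of each transcript, summed over a gene and scaled so that all genes of a library add to the same total. ADCY9 was first in all 6 groups, with means from 30.0 to 34.8, and ADCY6 was second, from 23.2 to 27.7. ADCY1 and ADCY3 came next in wildtype basal cells at 16.9 ± 3.99 and 20.6 ± 6.45 (SD, n = 3), a difference within the spread between replicates. ADCY7 stood at 13.1 ± 7.3 and ADCY5 at 2.38 ± 1.1. ADCY10, ADCY2 and ADCY8 had mean levels no higher than 0.576, 0.126 and 0.0356 in any group. ADCY1 made up 14.8 ± 1.55% of the summed level of the 9 genes in wildtype basal cells, 18.6 ± 0.565% in those without β-arrestin1/2 and 11.9 ± 1.35% in Gαs KO basal cells. The summed level of the 9 genes was 114 ± 20.6, 113 ± 9.8 and 96.8 ± 4.02 in the same groups. When each gene was divided by its longest transcript instead, ADCY9, ADCY6 and ADCY1 took the first, the second and the third place in every group, and ADCY3 in wildtype basal cells came to 12.0.

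**Figure D1:**
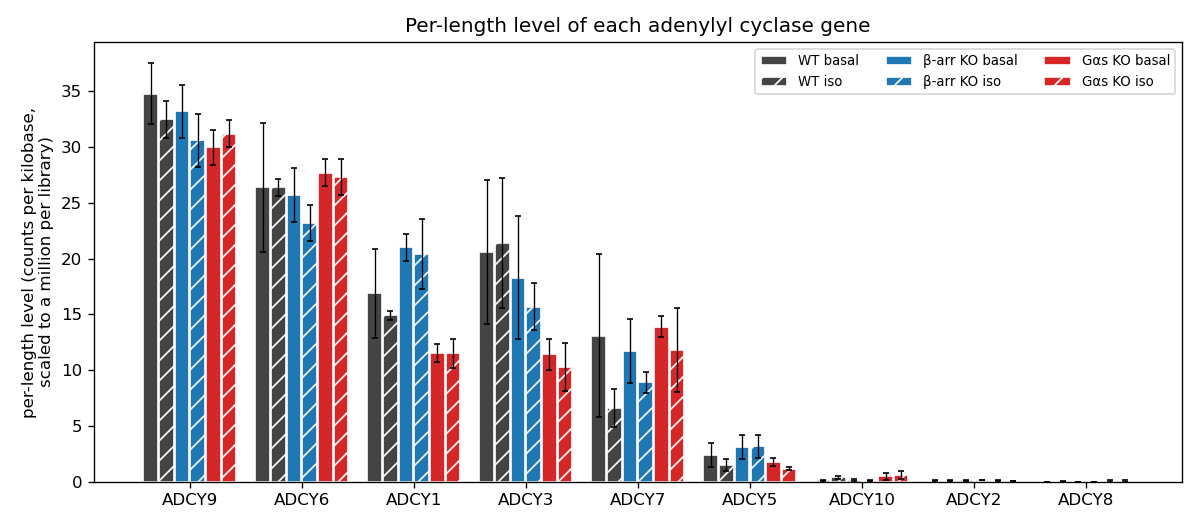
Per-length level of the 9 genes (counts per kilobase of transcript, scaled to the same total in each library) by cell line and treatment. Bars are means, error bars SD, n = 3, hatched bars the isoproterenol groups. ADCY9 stands highest in each group and ADCY10, ADCY2 and ADCY8 lie close to 0.

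The question put to the isoproterenol comparisons was whether the cyclase genes respond to isoproterenol within 1 h, in the presence or absence of β-arrestins or Gαs. In wildtype cells 0 of the 8 tested genes passed (adjusted p under 0.05, edgeR's quasi-likelihood test), where 0.464% of all 15519 genes tested did. In β-arrestin1/2 KO cells it was 0 of 8 against 1.13% of all genes, and in Gαs KO cells 0 of 8 against 0%. The differences between responses gave 0 of 8 for β-arrestin1/2 KO minus wildtype, where 0.168% of all genes were called, and 0 of 8 for Gαs KO minus wildtype, where 0.161% were. In each of these 5 comparisons the count of members with an unadjusted p under 0.05 was 0, and DESeq2 called 0.

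ADCY9, the most abundant member, shows how tight some of these intervals were. Its CPM values were 150, 114 and 117 in wildtype basal and 118, 112 and 116 in wildtype isoproterenol libraries. In β-arrestin1/2 KO cells they were 113, 115 and 113 at basal and 112, 112 and 101 after isoproterenol. In Gαs KO cells they were 106, 104 and 108 at basal and 111, 110 and 106 after isoproterenol. The log2 response was -0.13 (95% interval -0.320 to 0.050) in wildtype, -0.07 (-0.251 to 0.119) in β-arrestin1/2 KO and 0.04 (-0.143 to 0.227) in Gαs KO cells. The wildtype basal value of 150 is replicate 1, and without it the wildtype response of ADCY9 was 0.0022.

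ADCY1 and ADCY6 gave similarly bounded responses. The log2 response of ADCY1 was -0.15 (95% interval -0.409 to 0.099) in wildtype, 0.02 (-0.236 to 0.269) in β-arrestin1/2 KO and -0.03 (-0.287 to 0.224) in Gαs KO cells. That of ADCY6 was -0.12 (-0.456 to 0.208), -0.09 (-0.425 to 0.241) and -0.03 (-0.360 to 0.304) in the same order. Without wildtype basal replicate 1 the wildtype responses of ADCY1, ADCY3 and ADCY6 turned to 0.04, 0.02 and 0.20 and that of ADCY5 went from -0.11 to -0.22, none called. The lowest unadjusted p among the responses was 0.0628 by edgeR, for ADCY5 in Gαs KO cells, with a log2 value of -0.31 (95% interval -0.644 to 0.019, adjusted p = 1 by edgeR). The wildtype intervals of ADCY2 (-1.465 to 1.298), ADCY7 (-1.947 to 0.140) and ADCY10 (-1.236 to 2.152, the widest) were wide. That of ADCY3 ran from -0.797 to 0.400. In each of these genes a change within its own interval could not be told from none.

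**Figure D2:**
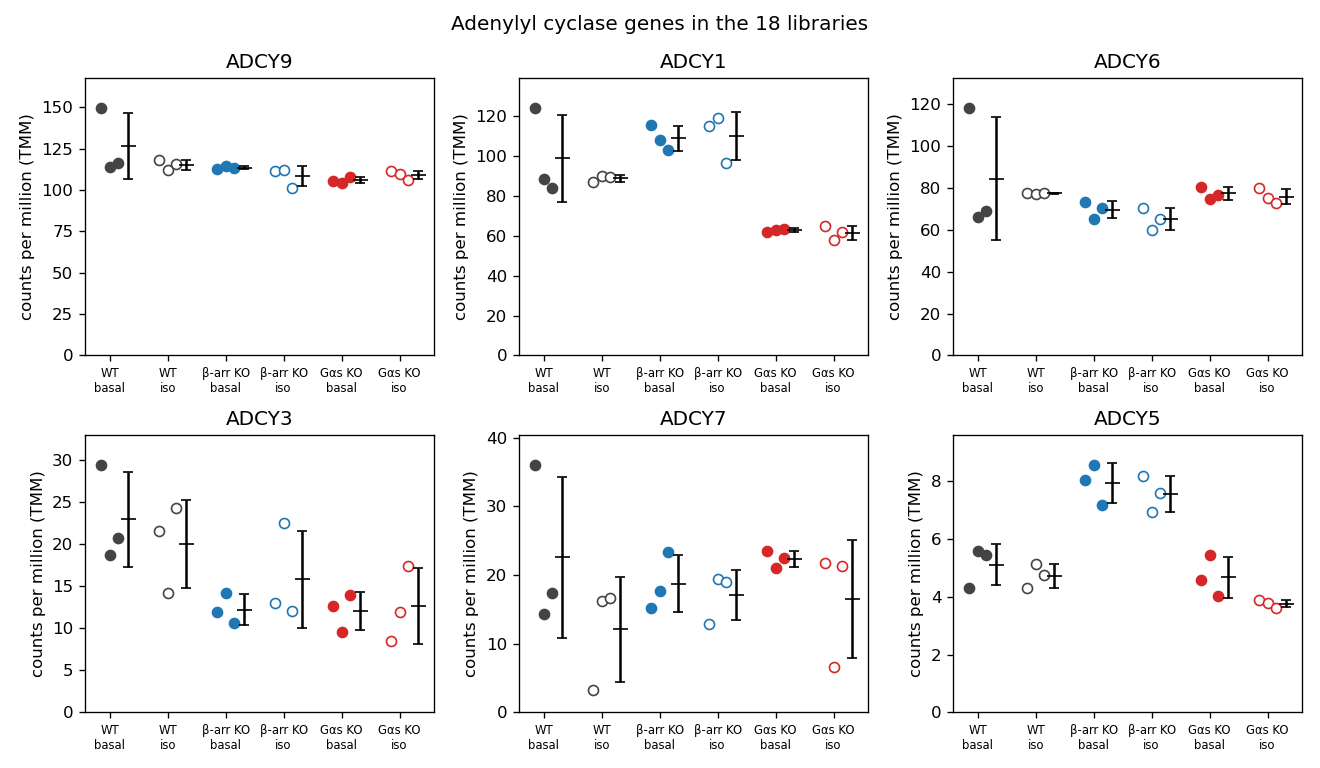
Levels in CPM (TMM scaled, linear axes from 0) of the 6 genes that held 10 counts or more in each library. Points are libraries, filled for basal and open for isoproterenol, and the bar beside them is mean ± SD, n = 3. ADCY1 sits between 57.7 and 64.9 in all Gαs KO libraries and ADCY5 between 6.93 and 8.56 in all β-arrestin1/2 KO libraries.

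Differences between the cell lines were seen in ADCY1, ADCY3, ADCY5 and ADCY9. Between basal β-arrestin1/2 KO and wildtype cells 2 of 8 members passed, where 33.6% of all genes did. Between basal Gαs KO and wildtype cells it was 3 of 8, where 31.3% of all genes did, and between the basal KO lines 2 of 8, where 26.2% did. In the isoproterenol libraries 1 of 8 passed for β-arrestin1/2 KO minus wildtype against 30% of all genes, and 1 of 8 for Gαs KO minus wildtype against 29.9%. The shares of members called lay near the shares of all genes in the basal comparisons and below them in the isoproterenol libraries. Without wildtype basal replicate 1 the basal counts against wildtype were again 2 (ADCY1 and ADCY5) and 3 (ADCY1, ADCY6 and ADCY9), where 46.7% and 45.9% of all genes were then called. The wildtype and KO comparisons share their wildtype libraries. ADCY10 is counted among the 8 although it passed the filter through Gαs KO libraries, and it was in none of these calls.

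ADCY1, a calmodulin-stimulated cyclase best known from neurons, was lower in Gαs KO cells. Its CPM values were 124, 88.6 and 84.1 in wildtype basal, 116, 108 and 103 in β-arrestin1/2 KO basal, and 62.0, 63.2 and 63.6 in Gαs KO basal libraries. After isoproterenol they were 87.1, 90.0 and 89.5 in wildtype, 115, 119 and 96.4 in β-arrestin1/2 KO, and 64.9, 57.7 and 62.1 in Gαs KO libraries. Every Gαs KO library lay below every wildtype and β-arrestin1/2 KO library. The log2 difference of Gαs KO minus wildtype was -0.65 (SE 0.12, adjusted p = 0.000601) at basal and -0.53 (SE 0.12, adjusted p = 0.00327) after isoproterenol, both by edgeR. Without wildtype basal replicate 1 the basal value was -0.46 and still called, and with only the groups compared in the fit it was -0.65 and not called (adjusted p = 0.0544). β-arrestin1/2 KO minus Gαs KO gave 0.79 at basal (adjusted p = 0.000115 by edgeR). β-arrestin1/2 KO minus wildtype was not called at basal (0.14) or after isoproterenol (0.31, adjusted p = 0.0616 by edgeR), but these non-calls depended on the setting. The basal value was called at 0.34 without wildtype basal replicate 1 and at 0.25 with GC content and length offsets. The isoproterenol value was called with DESeq2 (0.31, adjusted p = 0.049), with GC content and length offsets (0.42), with only the groups compared (0.31) and without β-arrestin1/2 KO isoproterenol replicate 3 (0.40).

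The gene lies on chromosome 7 (GRCh38, 45574140 to 45723116, plus strand). The RefSeq promoter tables hold 9 windows, from 250 bases before to 50 after a start, for 6 of the members. The palindromic cyclic AMP response element TGACGTCA was in 0 of these 9 windows on either strand, and in 1.85% of the 35116 promoters. Its core TGACG, which the full element contains, was in 4 windows (ADCY2, 1 of the ADCY3 windows, and both overlapping ADCY1 windows, which share the site), and in 24.6% of all promoters, on either strand. The 100 bases upstream of the ADCY1 start are shown because this was the member with the clearest difference between the lines, with TGACG in capitals (GRCh38.p14, chr7:45574040-45574139, plus strand). A match is a description of letters only.
ADCY1: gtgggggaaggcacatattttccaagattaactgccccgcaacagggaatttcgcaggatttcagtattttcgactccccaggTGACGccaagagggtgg

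ADCY5, a calcium-inhibited cyclase, was higher in β-arrestin1/2 KO cells. Its CPM values were 4.30, 5.59 and 5.44 in wildtype basal, 8.06, 8.56 and 7.18 in β-arrestin1/2 KO basal, and 4.59, 5.44 and 4.03 in Gαs KO basal libraries. After isoproterenol they were 4.31, 5.13 and 4.75 in wildtype, 8.18, 6.93 and 7.58 in β-arrestin1/2 KO, and 3.89, 3.78 and 3.62 in Gαs KO libraries. No β-arrestin1/2 KO library overlapped with the other lines. β-arrestin1/2 KO minus wildtype was 0.64 (SE 0.15, adjusted p = 0.00442) at basal and 0.68 (SE 0.15, adjusted p = 0.00326) after isoproterenol by edgeR, a ratio of 1.55 and 1.60. With only the groups compared in the fit, the basal value was 0.64 with an adjusted p of 0.0946 by edgeR, and without wildtype basal replicate 1 it was 0.53 and called (adjusted p = 0.011 by edgeR).

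ADCY6, the other calcium-inhibited cyclase, was not called in any line difference with all libraries and all groups in the fit. Its CPM values in wildtype basal libraries were 118, 65.9 and 68.9, in β-arrestin1/2 KO basal libraries 73.2, 65.2 and 70.2, and in Gαs KO basal libraries 80.5, 74.8 and 76.9. Wildtype basal replicate 1 alone lay above all other libraries. Gαs KO minus wildtype was -0.12 with it and 0.20 without it, then called (adjusted p = 0.023 by edgeR). β-arrestin1/2 KO minus wildtype at basal was -0.28 with all libraries, 0.05 without wildtype basal replicate 1, and -0.42 and called without wildtype basal replicate 2. With only the groups compared, ADCY6 was called for basal β-arrestin1/2 KO minus Gαs KO (-0.15, adjusted p = 0.0469 by edgeR) and for β-arrestin1/2 KO minus wildtype after isoproterenol (-0.25, adjusted p = 0.00835 by edgeR).

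ADCY3, a calmodulin-responsive cyclase known from olfactory cilia, was lower in CPM in both KO lines at basal. Per length, only the Gαs KO basal libraries (9.85 to 12.4) lay below all wildtype basal ones (13.2 to 25.4). The β-arrestin1/2 KO basal range, 12.0 to 22.5, overlapped that of wildtype, with means of 18.3 ± 5.53 and 20.6 ± 6.45 (SD). ADCY3 was tested on counts, not per length. Its CPM values were 29.4, 18.7 and 20.8 in wildtype, 11.9, 14.2 and 10.6 in β-arrestin1/2 KO and 12.7, 9.60 and 13.9 in Gαs KO basal libraries, without overlap of wildtype with either KO line. The log2 differences from wildtype were -0.91 (SE 0.29, adjusted p = 0.0226) and -0.93 (SE 0.29, adjusted p = 0.021) by edgeR. Without wildtype basal replicate 1 they were -0.68 (adjusted p = 0.0625) and -0.71 (adjusted p = 0.053), and neither was called. The call for β-arrestin1/2 KO was also lost without β-arrestin1/2 KO basal replicate 1 (-0.88) or 3 (-0.81), and that for Gαs KO without Gαs KO basal replicate 2 (-0.79). After isoproterenol the values were 21.6, 14.2 and 24.3 in wildtype, 13.04, 22.5 and 12.0 in β-arrestin1/2 KO and 8.54, 12.0 and 17.5 in Gαs KO libraries, which overlapped between wildtype and each KO line, and neither difference was called (-0.34 and -0.67). The Gαs KO value was called under 4 alternatives, with GC content and length offsets (-0.67, adjusted p = 0.045 by edgeR), with only the groups compared (-0.67), without wildtype isoproterenol replicate 2 (-0.87) and without Gαs KO isoproterenol replicate 3 (-0.97).

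ADCY9 was lower by a small margin in Gαs KO basal cells, at -0.26 (SE 0.09, adjusted p = 0.0338 by edgeR), with every Gαs KO basal library (104 to 108) below every wildtype basal library (114 to 150). The call was lost without any 1 of the 3 Gαs KO basal libraries, with values from -0.27 to -0.25. It was kept in 8 of 17 alternatives, and was also lost with upper-quartile scaling (adjusted p = 0.0804), with all genes of at least 1 count (0.0605), with protein-coding transcripts only (0.0512) and with only the groups compared (0.299), all by edgeR. Without wildtype basal replicate 1 it was -0.12 and called (adjusted p = 0.0401 by edgeR). After isoproterenol it was -0.08, not called.

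**Figure D3:**
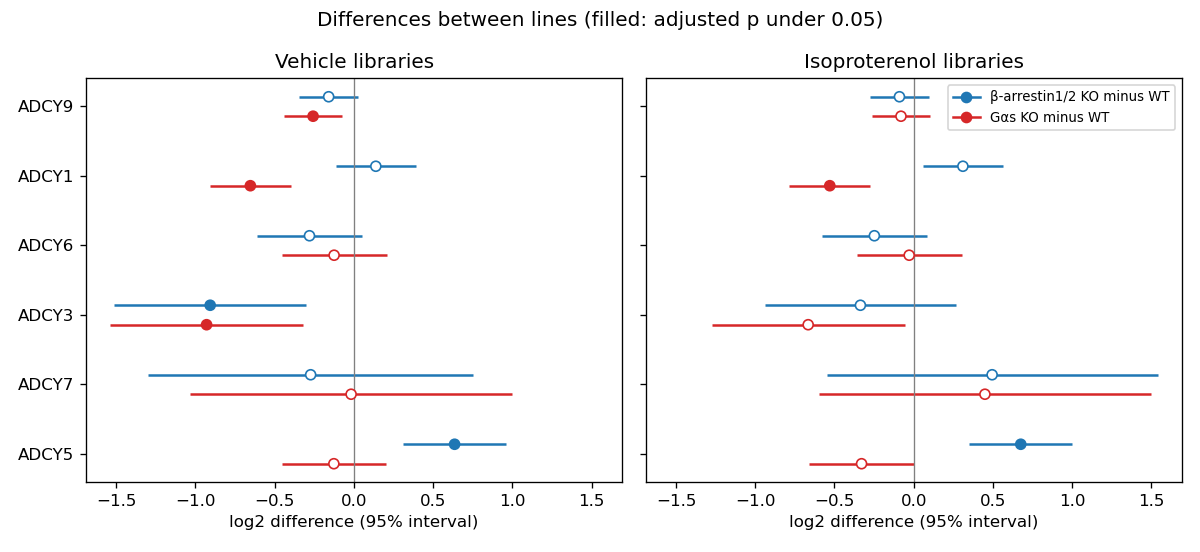
Log2 differences of the KO lines from wildtype for the 6 genes that held 10 counts or more in each library, in basal (left) and isoproterenol (right) libraries. Points are edgeR estimates, filled where the adjusted p is under 0.05, and lines are 95% intervals. ADCY5 is filled for β-arrestin1/2 KO and ADCY1 for Gαs KO in both panels.

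ADCY7, a Gβγ-enhanced cyclase common in blood cells, varied most between replicates among the 6 genes, with a biological coefficient of variation of 0.416 against 0.082 for ADCY9. Its expected counts were 662, 247 and 298 in wildtype basal and 58, 307 and 306 in wildtype isoproterenol libraries. In Gαs KO isoproterenol libraries they were 425, 129 and 359. The low libraries were wildtype isoproterenol replicate 1 and Gαs KO isoproterenol replicate 2, in which ADCY7-201 and ADCY7-202, the long coding transcripts, held 0 counts and the other transcripts 58 and 129. In the other 16 libraries these 2 transcripts held 155 to 376 counts together. Some counted transcripts had no match in the annotation used here, and whether reads of ADCY7 went to one of them was not tested. The wildtype response of ADCY7 was -0.90 (95% interval -1.947 to 0.140) with all libraries, -0.46 without those 2 and -0.39 without wildtype basal replicate 1, the library with 662 counts, none of them called.

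**Figure D4:**
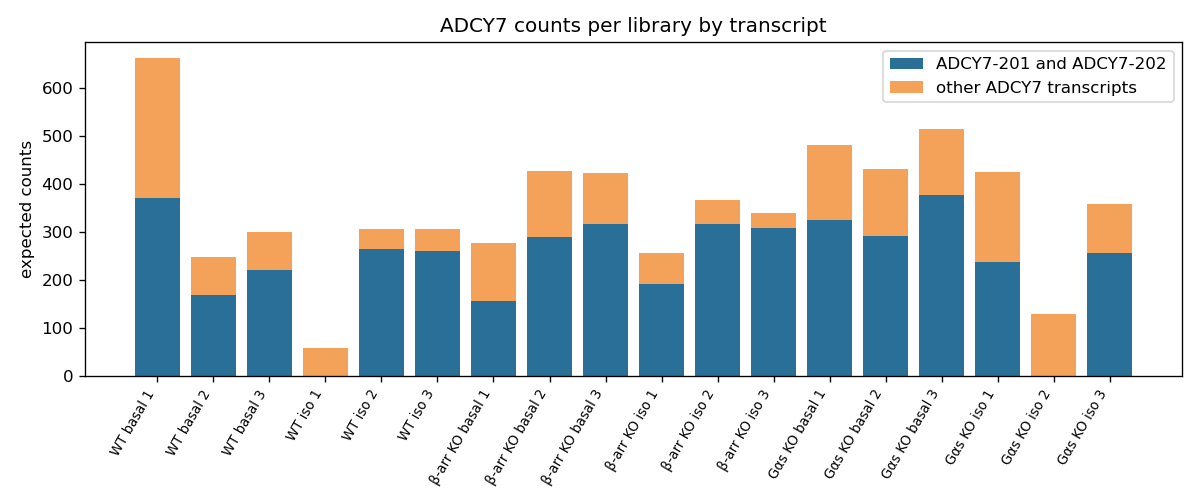
Expected counts of ADCY7 in each of the 18 libraries (linear axis), split into the long coding transcripts ADCY7-201 and ADCY7-202 and all other ADCY7 transcripts. The long transcripts are at 0 in wildtype isoproterenol replicate 1 and Gαs KO isoproterenol replicate 2.

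ADCY9, ADCY1, ADCY6 and ADCY5 were carried mostly by 1 transcript, ADCY7 and ADCY3 less so. ADCY9-201 held 98.3% of the counts of its gene over all libraries, ADCY1-201 97.3%, ADCY6-202 87.4%, ADCY5-202 84.7%, ADCY7-201 62.2% and ADCY3-202 50.3%. In ADCY3 the second transcript, ADCY3-211, is a retained-intron form of 1002 bases with 18.2% of the counts, and the third, ADCY3-213, is coding with 13.6%. The share of the leading transcript was compared between each KO line and wildtype in 12 exact two-sided permutation tests within treatment, of which 0 passed after Benjamini-Hochberg adjustment. The lowest p was 0.05 (adjusted 0.405, exact permutation test) for ADCY6-202, at 90.4% in wildtype and 86.5% in Gαs KO cells. The smallest p this design allows is 0.005. Over 12 tests, 1 comparison alone at that p could not pass the adjustment, so the 0 does not show that the shares were equal.

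The remaining members were near the limit of detection. ADCY2 had 2 to 13 counts per library, 94.1% of them on ADCY2-204, a retained-intron transcript, and only 5.17% on a coding one. ADCY10 had 1 to 10 counts in wildtype and β-arrestin1/2 KO libraries apart from 1 library at 0, and 25, 7 and 17 in Gαs KO basal and 16, 7 and 34 in Gαs KO isoproterenol libraries. The libraries with the most ADCY10 counts were Gαs KO ones, and the gene passed the filter through them. Its difference between Gαs KO and wildtype cells is therefore read from counts only. ADCY10 stays among the 8 tested genes and was not called in any comparison. The log2 values of ADCY10 in the closing section show only how they moved with the setting, and nothing is read from them. ADCY8 was at 0 in 15 libraries and at no more than 2 counts in the rest.

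As a description over the 18 libraries, the gene with the pattern most like ADCY1 was ITPR3 (Pearson r = 0.985), and that most like ADCY5 was ANO1 (r = 0.939), ADCY6 KLC2 (r = 0.962), ADCY9 TBCD (r = 0.942), ADCY3 PDE9A (r = 0.822), ADCY7 PHF24 (r = 0.786), ADCY2 PURG (r = 0.82) and ADCY10 CFP (r = 0.81). The points share cell line and treatment, so lines that differ in many genes give such values.

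Around the cyclases, 6 lists of related genes were read in the same fit. Their counts stand beside the 33.6% of all genes called in basal β-arrestin1/2 KO cells against wildtype (15.7% higher, 17.9% lower) and the 31.3% in basal Gαs KO cells (14.2% higher, 17.1% lower), and nothing is read from a count near those shares. Without wildtype basal replicate 1 these shares were 46.7% and 45.9%. Among their upstream Gα subunits, 1 of 7 rose and 3 fell in basal Gαs KO cells against wildtype (median log2 difference -0.39, all genes 0.01). GNAS, the gene edited in this line, was 1 of the 3 and fell by 4.32. The count and the median include it and are not read as a result about the other subunits. GNAL, the olfactory relative of Gαs, fell by 1.04. In basal β-arrestin1/2 KO cells 1 rose and 2 fell, the largest being GNAZ, a Gαi-family subunit, at -0.72 and GNAL at -0.59. Leaving out wildtype basal replicate 1 gave 1 higher and 3 lower, GNAS again among them, in Gαs KO and 3 higher and 2 lower in β-arrestin1/2 KO cells. Of the calmodulin and kinase list, 2 of 12 rose and 1 fell in basal β-arrestin1/2 KO cells, PRKCB, a protein kinase C, by 1.76 and CALM2, a calmodulin gene, by 0.47, and 1 fell in Gαs KO cells, PRKCA, at -0.32. With that library left out the counts were 5 higher and 4 lower in β-arrestin1/2 KO and 2 higher and 2 lower in Gαs KO cells, and CALM2 stood at 0.21.

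Of the scaffolds and other regulators, RGS2, which dampens G protein and cyclase signalling, was the only one of 9 called in a response: it rose by 1.46 in wildtype (adjusted p = 0.000335) and by 1.71 in β-arrestin1/2 KO cells (adjusted p = 3.22e-05), and its response was lower in Gαs KO than in wildtype cells by a difference of -1.46 (adjusted p = 0.0272), by edgeR. At basal, 1 of the 9 rose in β-arrestin1/2 KO cells, RIC8A, a Gα chaperone, by 0.38, and in Gαs KO cells 1 rose and 2 fell, the largest being RGS2 at -0.63 and STIM1, a calcium sensor, at -0.44. When wildtype basal replicate 1 was dropped it was 2 higher and 2 lower in β-arrestin1/2 KO and 2 higher and 3 lower in Gαs KO cells. RIC8A then stood at 0.61 in β-arrestin1/2 KO cells, and STIM1 at -0.27 and RGS2 at -0.84 in Gαs KO cells. The wildtype response of RGS2 was 1.25, still called.

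The phosphodiesterases, which break cyclic AMP down, and the exporter ABCC4 formed the longest list. In basal Gαs KO cells 10 of 16 tested fell and 0 rose (median log2 difference -0.48, all genes 0.01). Of all genes, 17.1% were called lower there. Among the 10 were PDE7B at -1.75 and PDE4B at -1.14. Their counts were low, 26 to 37 and 28 to 31 in wildtype basal libraries, and 2 to 18 and 13 to 21 in Gαs KO basal libraries. In basal β-arrestin1/2 KO cells 5 fell and 0 rose (median -0.34, all genes 0.02), where 17.9% of all genes were called lower. The share of all genes called in either direction was 33.6%. Among the 5 were PDE7B at -1.85 and PDE2A at -1.55, each with at most 18 counts per β-arrestin1/2 KO basal library. When wildtype basal replicate 1 was left out it was 9 lower and 1 higher in Gαs KO and 9 lower and 0 higher in β-arrestin1/2 KO cells. The shares of all genes called lower were then 24% and 23.7%. The genes called in Gαs KO cells also changed. PDE1B (-0.20) and PDE4A (-0.19) were no longer called, PDE3B (-0.20) was added, and the higher gene was PDE3A (1.37). Of the 10 readers of cyclic AMP listed, 9 were matched and 7 tested. PRKACA, a protein kinase A catalytic subunit, was not tested, with 0 counts in all groups but wildtype isoproterenol, where the maximum was 20. Whether its reads lay on transcripts without a match was not tested. Of the 7, 3 fell in basal Gαs KO cells, with POPDC3, a membrane cyclic AMP-binding protein, at -1.07 and PRKAR1A, a protein kinase A regulatory subunit, at -0.29. In basal β-arrestin1/2 KO cells 1 fell, RAPGEF3, an exchange factor for RAP1, at -1.49. In the fit lacking wildtype basal replicate 1, 8 readers were tested, of which 1 was higher and 3 lower in Gαs KO and 1 higher and 4 lower in β-arrestin1/2 KO cells. RAPGEF3 then stood at -0.83 in β-arrestin1/2 KO cells, and POPDC3 at -1.22 and PRKAR1A at -0.41 in Gαs KO cells. Of the guanylyl cyclases, the related cyclic GMP enzymes, 1 of 6 tested rose and 2 fell in each basal comparison with wildtype. GUCY1A2 rose by 1.72 in β-arrestin1/2 KO and by 1.71 in Gαs KO cells. NPR2 was at -1.06 in β-arrestin1/2 KO cells, and NPR1 at -2.78 in Gαs KO cells. GUCY2C, also called lower in Gαs KO cells, had 14 to 18 counts in wildtype basal and 0 to 3 in Gαs KO basal libraries. It passed the filter on low counts through wildtype libraries, so its difference is given as counts only. The numbers of guanylyl cyclases called were again 1 higher and 2 lower in both comparisons without wildtype basal replicate 1. GUCY1A2 then stood at 1.38 in β-arrestin1/2 KO and 1.36 in Gαs KO cells. NPR2 was at -0.87 in β-arrestin1/2 KO and NPR1 at -2.59 in Gαs KO cells.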

How the data were processed

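RNA-seq of 18 libraries was analysed. The authors counted reads with Salmon 1.7.0 and deposited expected counts per transcript (per the file headers, one column per library). The annotation they used is not given in the sources used here, and the submitters' notes name GRCh38. Here, transcripts were matched to GENCODE 29 (161798 of 184844 matched), summed to genes and rounded. Genes with low counts were removed by filterByExpr, libraries were scaled by TMM, and edgeR 4.0.16 quasi-likelihood tests (R 4.3.3) were run in 1 model of 6 groups, with Benjamini-Hochberg adjustment over 15519 genes and a threshold of 0.05. DESeq2 1.42.0 and other settings were alternatives. The test script was tested on simulated data. Salmon can share reads between similar transcripts, which affects transcript shares more than gene sums. Precision is set by the replicate number of 3 and by counts from 0 to 2768 per member and library. The labels give biological replicates and do not say how they were kept separate, and same-numbered replicates were not taken as pairs. All 9 members are named whatever their values. The members and gene lists were chosen with earlier results of these data known. Of the lists, the text names genes called in a response, and of the others the 2 with the largest basal difference. The protein comparison that had been planned was not run. A planned check of a further gene is not reported here.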

Additional observations from a re-analysis of the deposited data

How the results depend on the processing

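Over 1410 values of the 8 tested members under the alternatives, 153 belonged to a call of the report, of which 135 stayed called, 18 were lost and 0 changed direction, and 15 further values became called. A change of sign occurred 86 times, 1 of them with a call under the alternative. With the same-numbered replicates taken as a replicate block the numbers of members called were 0, 0, 0, 0, 0, 2, 3, 2, 1, 1 over the 10 comparisons, as without it. The deviations of same-numbered libraries from their group means had mean correlations from -0.063 to 0.037. Whether same-numbered samples were prepared together is not known from the labels.

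The number of members called changed by more than 1.5 times in these cases: with adjusted p under 0.01 it was 1 for the basal difference, β-arrestin1/2 KO minus wildtype, 1 for the basal difference, Gαs KO minus wildtype, and with only the groups compared it was 1 for the basal difference, β-arrestin1/2 KO minus wildtype, 1 for the basal difference, Gαs KO minus wildtype, 4 for the basal difference, β-arrestin1/2 KO minus Gαs KO, 3 for the isoproterenol-state difference, β-arrestin1/2 KO minus wildtype, 2 for the isoproterenol-state difference, Gαs KO minus wildtype, and with GC content and length offsets it was 2 for the isoproterenol-state difference, β-arrestin1/2 KO minus wildtype, 2 for the isoproterenol-state difference, Gαs KO minus wildtype, and with DESeq2 Wald test it was 2 for the isoproterenol-state difference, β-arrestin1/2 KO minus wildtype.

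Leaving out 1 library at a time, it ranged from 1 to 3 for the basal difference, β-arrestin1/2 KO minus wildtype, 1 to 3 for the basal difference, Gαs KO minus wildtype, 1 to 2 for the isoproterenol-state difference, β-arrestin1/2 KO minus wildtype, 1 to 2 for the isoproterenol-state difference, Gαs KO minus wildtype.

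Log2 values that changed sign with wildtype isoproterenol replicate 1 and Gαs KO isoproterenol replicate 2 left out together (chosen after seeing the data) were 0.23 (ADCY2, isoproterenol response, wildtype), 0.014 (ADCY1, isoproterenol response, Gαs KO), 0.048 (ADCY2, isoproterenol response, Gαs KO), -0.079 (ADCY2, response difference, β-arrestin1/2 KO minus wildtype), -0.027 (ADCY5, response difference, β-arrestin1/2 KO minus wildtype), 0.47 (ADCY10, response difference, Gαs KO minus wildtype).

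Log2 values that changed sign under GC content and length offsets were 0.029 (ADCY6, isoproterenol response, wildtype), 0.070 (ADCY5, isoproterenol response, β-arrestin1/2 KO), 0.0032 (ADCY6, isoproterenol response, β-arrestin1/2 KO), 0.044 (ADCY9, isoproterenol response, β-arrestin1/2 KO), -0.026 (ADCY6, response difference, β-arrestin1/2 KO minus wildtype), -0.021 (ADCY1, response difference, Gαs KO minus wildtype), -0.055 (ADCY6, response difference, Gαs KO minus wildtype), 0.12 (ADCY10, response difference, Gαs KO minus wildtype), 0.13 (ADCY7, basal difference, Gαs KO minus wildtype).

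Log2 values that changed sign under upper-quartile scaling were -0.010 (ADCY1, isoproterenol response, β-arrestin1/2 KO), 0.015 (ADCY10, response difference, Gαs KO minus wildtype), 0.00090 (ADCY7, basal difference, Gαs KO minus wildtype), 0.024 (ADCY6, isoproterenol-state difference, Gαs KO minus wildtype).

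Log2 values that changed sign under protein-coding transcripts only were -0.031 (ADCY5, response difference, β-arrestin1/2 KO minus wildtype), 0.31 (ADCY10, response difference, Gαs KO minus wildtype), 0.025 (ADCY7, basal difference, Gαs KO minus wildtype), -0.16 (ADCY3, basal difference, β-arrestin1/2 KO minus Gαs KO).

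Log2 values that changed sign under replicate block were 0.036 (ADCY2, response difference, Gαs KO minus wildtype), 0.030 (ADCY10, basal difference, β-arrestin1/2 KO minus wildtype).

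Results that changed sign when 1 library was left out ranged from -0.26 to 0.042 (ADCY1, isoproterenol response, wildtype), -0.88 to 0.59 (ADCY2, isoproterenol response, wildtype), -0.36 to 0.020 (ADCY3, isoproterenol response, wildtype), -0.27 to 0.20 (ADCY6, isoproterenol response, wildtype), -0.21 to 0.0022 (ADCY9, isoproterenol response, wildtype), -0.045 to 0.10 (ADCY1, isoproterenol response, β-arrestin1/2 KO), -0.045 to 0.38 (ADCY2, isoproterenol response, β-arrestin1/2 KO), -0.27 to 0.046 (ADCY7, isoproterenol response, β-arrestin1/2 KO), -0.068 to 0.014 (ADCY1, isoproterenol response, Gαs KO), -0.53 to 0.28 (ADCY2, isoproterenol response, Gαs KO), -0.23 to 0.29 (ADCY3, isoproterenol response, Gαs KO), -0.063 to 0.0050 (ADCY6, isoproterenol response, Gαs KO), -0.38 to 0.95 (ADCY10, isoproterenol response, Gαs KO), -0.027 to 0.27 (ADCY1, response difference, β-arrestin1/2 KO minus wildtype), -0.44 to 1.03 (ADCY2, response difference, β-arrestin1/2 KO minus wildtype), -0.035 to 0.15 (ADCY5, response difference, β-arrestin1/2 KO minus wildtype), -0.29 to 0.18 (ADCY6, response difference, β-arrestin1/2 KO minus wildtype), -0.070 to 0.13 (ADCY9, response difference, β-arrestin1/2 KO minus wildtype), -0.072 to 0.23 (ADCY1, response difference, Gαs KO minus wildtype), -0.73 to 0.74 (ADCY2, response difference, Gαs KO minus wildtype), -0.038 to 0.48 (ADCY3, response difference, Gαs KO minus wildtype), -0.23 to 0.25 (ADCY6, response difference, Gαs KO minus wildtype), -0.043 to 0.85 (ADCY7, response difference, Gαs KO minus wildtype), -0.84 to 0.49 (ADCY10, response difference, Gαs KO minus wildtype), -0.42 to 0.047 (ADCY6, basal difference, β-arrestin1/2 KO minus wildtype), -0.51 to 0.24 (ADCY7, basal difference, β-arrestin1/2 KO minus wildtype), -0.45 to 0.39 (ADCY10, basal difference, β-arrestin1/2 KO minus wildtype), -0.64 to 0.47 (ADCY2, basal difference, Gαs KO minus wildtype), -0.28 to 0.20 (ADCY6, basal difference, Gαs KO minus wildtype), -0.26 to 0.49 (ADCY7, basal difference, Gαs KO minus wildtype), -0.11 to 0.14 (ADCY3, basal difference, β-arrestin1/2 KO minus Gαs KO), -0.57 to 0.54 (ADCY2, isoproterenol-state difference, Gαs KO minus wildtype), -5.12 to 6.37 (leading transcript share, ADCY3, Gαs KO minus wildtype), -5.10 to 12.10 (leading transcript share, ADCY7, β-arrestin1/2 KO minus wildtype). The leading transcript shares are in percentage points.

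With each gene divided by its longest transcript, 32 of 54 per-length levels moved by more than 1 SD, while ADCY9 and ADCY6 kept the first 2 places. The cause of these changes was not tested.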
